A study of Brassica oleracea var. italica with 18 samples.

Results

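Expression in the shoot meristem of the heat-tolerant (HT) broccoli line was compared between plants held at 27 °C and plants held at 15 °C. The comparison rests on 6 of the 18 arrays of the series, the 3 HT arrays at 27 °C (HT27) and the 3 HT arrays at 15 °C (HT15), chosen by the genotype and temperature in their labels. Each array was hybridised with Cy3-labelled RNA in a single colour and carried 43603 probes for Brassica transcripts. Both lines, HT and a heat-sensitive line (HS), were raised in growth chambers with 18 h of light and 6 h of dark. Seedlings spent 10 days in vermiculite and 30 days in soil at 22 °C, and were then moved to 15, 22 or 27 °C for 2 weeks according to the labels. The methods give a shorter treatment than the labels. Every plant had the same start at 22 °C, so 15 and 27 °C are both departures from it. The labels call the 3 arrays of each group biological replicates, and the methods name 3 individual plants in the sampling of whole shoot meristems without saying whether an array holds 1 of them or a pool. Each line is a single genotype, so that differences between lines belong to these lines. The other HT and HS arrays served the estimate of the spread and gave the steps 15 to 22 °C and 22 to 27 °C and the response of HS, used here only where HT differs.

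Broccoli forms its head when the shoot meristem turns from making leaves to making flowers, and in many plants of the cabbage family a period of cool weather is needed for this turn. FLC, a MADS box repressor of flowering, is switched off by long cold, while the clock gene GI and the meristem gene LFY act in the paths that promote flowering. Warmth that unfolds proteins calls up chaperones: small heat shock proteins hold unfolded proteins, HSP70 and its DnaJ partners refold them, and chaperonins fold new proteins in closed chambers. Warmth is also known in Arabidopsis to alter auxin, jasmonate and salicylic acid signalling, the last of which guides defence against pathogens that feed on living tissue.

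Across the 6 arrays, 64.5% to 69.8% of probes were well above background by the scanner software and 0 spots were saturated. Arrays of 1 temperature correlated at r = 0.9875 to 0.9925 and arrays of different temperatures at 0.979 to 0.9852, over all probes. The 15 °C arrays lay on slides of their own (replicates 1 and 2 on a slide, replicate 3 on another), whereas the 22 and 27 °C arrays of a replicate number shared a slide. The slide and the temperature therefore cannot be told apart in the comparison of 27 with 15 °C, but 27 and 22 °C, and the difference between the lines, were measured within slides. The HT15 arrays were all scanned on day 2, as was HT27 replicate 3, whereas HT27 replicates 1 and 2 were scanned on day 1. Among the probes called lower at 27 °C, HT15 replicate 3 read more than 1 log2 below both other HT15 arrays for 177 probes, HT15 replicate 1 lay as far above both others for 45, and HT27 replicate 3 read as far below both other HT27 arrays for 101. Markers of the sampled tissue were present: 8 of 8 shoot meristem probes were well above background on all 6 arrays (2 higher, 3 lower). Their summed linear intensity, as log2, was 14.56 to 14.92 at 15 °C and 14.84 to 15.27 at 27 °C. This sum rests mostly on 1 bright ERECTA probe, A_46_P274573, which was not called. It read 14.29, 14.72 and 14.66 at 15 °C and 14.70, 14.89 and 15.16 at 27 °C. The sum is therefore not a level shared by the 8 probes. In such bulk samples, fewer cells of a type and less RNA per cell cannot be told apart.

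At 27 °C, 941 probes were higher and 981 lower than at 15 °C in HT, by the call used for counts (adjusted p under 0.05 and at least 2-fold). These are 2.16% and 2.25% of all probes, 4.41% together. The HT15 and HT27 values did not overlap for 927 and 947 of them, and over all probes 18.0% did not overlap with the 27 °C arrays above and 18.2% with them below, 36.2% together. A difference of at least 4-fold was found for 221 higher and 308 lower probes, and of at least 8-fold for 65 and 116. Many of these rest on a dim side, since 168 of the higher probes were at background on every HT15 array and 356 of the lower ones on every HT27 array. Without a minimum fold, 3866 probes (8.87%) rose and 4035 (9.25%) fell, 18.1% together, and the median log2 difference over all probes was 0.01. The balance of the calls depended on the scaling: 49.0% of calls were higher after quantile normalization, 52.2% with another background correction and 62.0% when each array was shifted to its 75th percentile, which moves the median of all probes to 0.116. With scan day as a block 866 probes were called higher and 1046 lower, and among the arrays of day 2 alone, with a single HT27 array, 1049 and 688.

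**Figure D1:**
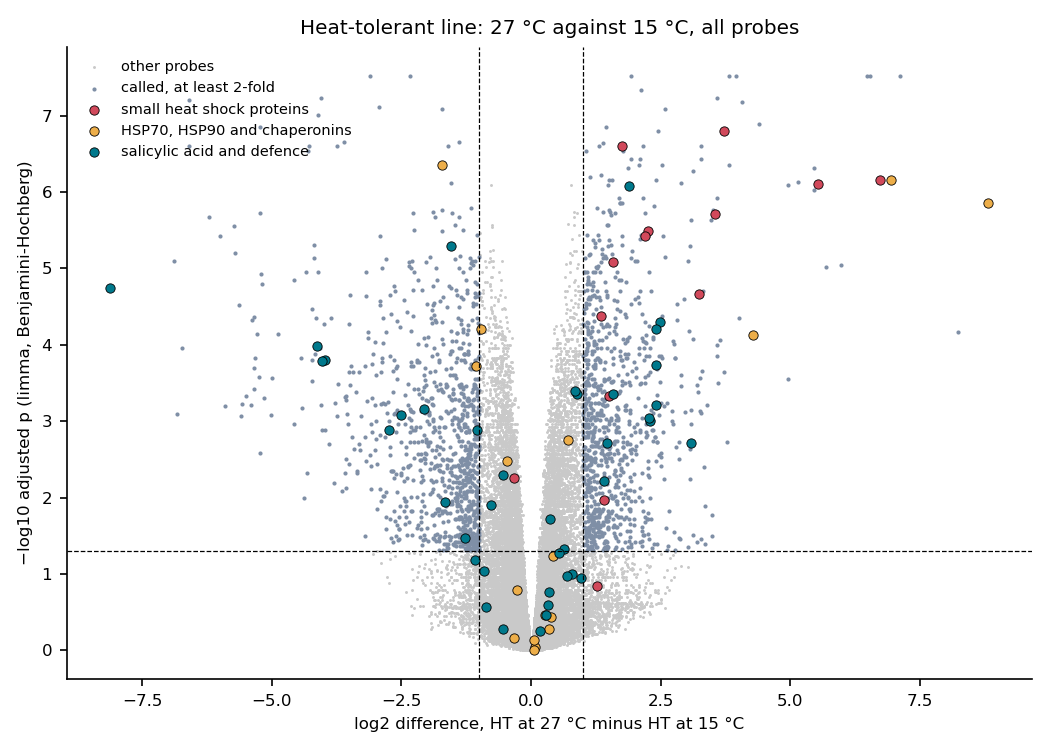
All 43603 probes by log2 difference, HT at 27 °C minus HT at 15 °C (x axis), and by −log10 of the adjusted p from limma (y axis), with dashed lines at 2-fold and at an adjusted p of 0.05. Probes of 3 gene lists are coloured; the small heat shock proteins lie to the right, with HSP70 farthest at 8.81, and defence probes lie on both sides, with a thaumatin farthest to the left at −8.11.

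More probes were called below 22 °C than above it. From 15 to 22 °C 1230 probes (2.82%) were called in HT, 492 higher (1.13%) and 738 lower (1.69%). From 22 to 27 °C 259 (0.594%) were called, 167 higher (0.383%) and 92 lower (0.211%). By adjusted p alone, 5.06% of probes rose and 5.15% fell from 15 to 22 °C, and 1.09% rose and 0.805% fell from 22 to 27 °C. The step from 15 to 22 °C also crosses slides and the step from 22 to 27 °C does not. In HS, 1562 probes (3.58%) were called between 15 and 27 °C, 870 higher (2.0%) and 692 lower (1.59%), and by adjusted p alone 7.95% rose and 8.04% fell. The response itself differed between the lines for 165 probes (0.378%), 64 (0.147%) with the more positive response in HT and 101 (0.232%) with the more negative. Of these, 78 were called in HT and not in HS by adjusted p, 55 in HS and not in HT, and 32 in both, 19 of them in the same direction. Some of the 165 lay near the lowest signal in 1 line at both temperatures, where a response could not be measured. Thus A_46_P366885 read 1.93, 1.97 and 2.04 in HT15 and 1.94, 1.96 and 1.95 in HT27. In HS, A_46_P335600 read 1.93, 1.91 and 1.92 at 15 °C and 1.92, 1.92 and 1.94 at 27 °C. The count therefore holds probes hardly detected in 1 line beside probes with unlike responses. The count of 165 moved with single arrays, to 412 without HT15 replicate 3, 104 without HT27 replicate 3 and 93 without HT27 replicate 2.

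Names were available for 2500 probes, through tables of the study that pair probes with Arabidopsis loci: 1187 probes of co-expression modules tied to temperature and 1313 probes that were higher in HT than in HS at 1 or more temperatures. The study drew both sets from these same arrays, so their direction is not independent evidence, and a probe named by a locus does not tell apart the several broccoli copies of a gene. Among module probes 517 rose and 411 fell, among line-list probes 153 and 165. By known function, 460 probes of 359 loci fell into 25 lists, in which a probe was called by adjusted p alone (limma with Benjamini-Hochberg adjustment). Of these 146 rose, 116 fell and 198 were not called, with a median log2 difference of 0.22 beside 0.01 over all probes. These are 31.7% and 25.2% of list probes, beside 26.8% and 23.0% of the 2500 named probes and 8.87% and 9.25% of all probes. The counts of each list below stand against these shares and against those of their source. Of the 1187 module probes 517 rose and 411 fell, against 153 and 165 of the 1313 line-list probes. Lists mix the sources unevenly: 26 of 32 cell wall probes came from the modules, but 7 of 23 glucosinolate and phenylpropanoid probes. The pooled share of named probes therefore does not suit every list. The named probes were selected on these arrays and were called more often than other probes to begin with. When each HT15 and HT27 array was left out in turn, 106 of the 146 and 82 of the 116 kept their call every time. With scan day as a block 37 list or named probes lost their call, each of which also lost it without 1 or more of the 6 arrays. The methods' t-test, after Benjamini-Hochberg adjustment, called 81 higher and 48 lower.

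**Figure D2:**
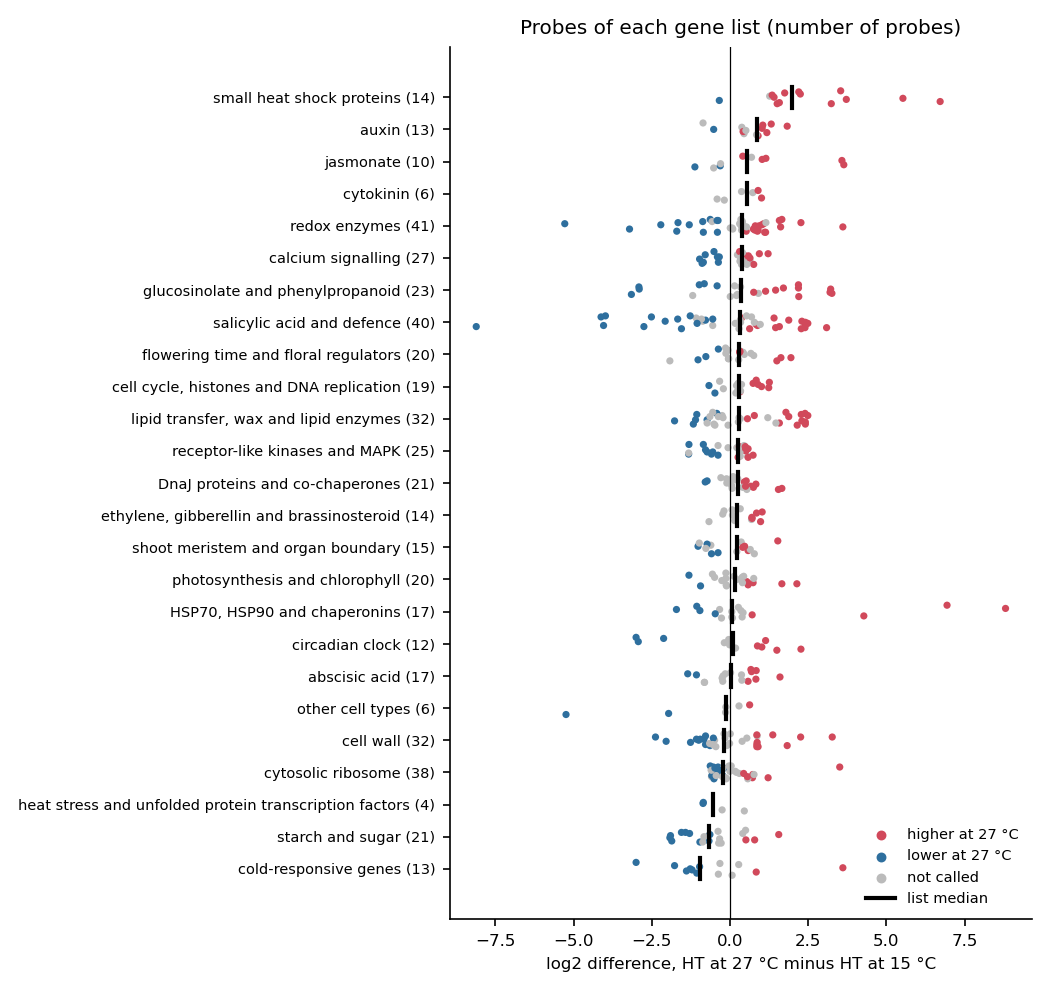
Each point is a probe of a gene list, at its log2 difference between HT at 27 °C and HT at 15 °C; red points were called higher, blue points lower and grey points not called by adjusted p, and the black bar is the median of the list. Small heat shock proteins have the highest median at 1.97 and cold-responsive genes the lowest at −0.97.

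Small heat shock proteins were the list with the highest median. Of 14 probes of 8 loci, 13 of them from the modules, 12 rose and 1 fell, with a median of 1.97 and a range of −0.34 to 6.72. A cytosolic small heat shock protein (AT5G12030) read 7.32, 7.56 and 7.47 log2 intensity at 15 °C in replicates 1 to 3, 9.37, 9.64 and 9.27 at 22 °C and 10.80, 11.16 and 11.54 at 27 °C on probe A_46_P181304. Each temperature stood clear of the next, and the total was 3.72 ± 0.20 (SE, n = 3 arrays per group, adjusted p = 1.57e-07), a 13.1-fold rise of which 1.98 came by 22 °C and 1.74 above it. A second probe of the locus (A_46_P139009) was at background on every HT15 array, at 2.69, 2.35 and 3.25, and reached 8.68, 9.70 and 10.08, at least 49.5-fold higher. HSP17.6II, another cytosolic member, was likewise at background at 15 °C and at least 29.4-fold higher at 27 °C on A_46_P237799 (8.02, 9.13 and 9.04), and 3.54 higher on A_46_P246399.

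Of the 14 probes 8 were called higher from 15 to 22 °C and 9 from 22 to 27 °C. The endomembrane member AT4G10250 rose by 3.24 in all, with 2.96 of it above 22 °C and 0.28 below. HSP23.6-mito, a mitochondrial member outside the lists (AT4G25200, A_46_P146489), read 4.27, 4.60 and 4.30 at 15 °C, 4.71, 4.43 and 5.48 at 22 °C, and 7.97, 8.60 and 8.62 at 27 °C. It was level at the lower temperatures within the spread of its arrays (0.48) and rose by 3.53 from 22 to 27 °C, 4.01 ± 0.44 in total (adjusted p = 4.47e-05) beside 5.40 in HS. The HSP20-like AT2G29500 rose by 2.25 and 2.20 on A_46_P142729 and A_46_P236944, mostly above 22 °C (1.64 and 1.58), whereas another probe, A_46_P179379, rose by 1.75 with 1.5 of it below. AT2G19310 (1.58 and 1.35) and AT5G47590 (1.51 and 1.41) rose on each of their probes, though the second AT5G47590 probe, A_46_P263078, lost its call without HT15 replicate 1 (adjusted p = 0.0546). The exception was AT5G51440, which fell by 0.34. In HS, 13 of the 14 probes rose and 1 fell, and the lowest adjusted p for a difference between the lines was 0.649.

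Larger chaperones split. Of 17 probes for HSP70, HSP90 and chaperonins, 4 rose and 4 fell, with a median of 0.08. HSP70 AT3G12580 carried the rise on all 3 of its probes: A_46_P152624 read 3.37, 3.16 and 4.49 at 15 °C, 6.05, 6.19 and 6.16 at 22 °C and 11.30, 13.07 and 13.11 at 27 °C. Replicate 1 was the lowest of the HT27 arrays and still far above every other HT array. The total was 8.81 ± 0.63 (adjusted p = 1.41e-06), the largest rise of any probe that met the naming rule, with 2.46 below 22 °C and 6.35 above; the probe was above background on 1 HT15 array. On the other probes, A_46_P318410 stayed at background through 22 °C (1.91, 1.94 and 1.92 at 15 °C) and was at least 32.1-fold higher at 27 °C, and A_46_P143424 rose by 4.28, with 3.99 above 22 °C. On each probe the larger step was the upper one, and the response did not pass the test of a difference from HS (0.62 ± 0.89 on A_46_P152624, adjusted p = 0.975).

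Within this list the largest fall was that of a mitochondrial chaperonin. This mitochondrial chaperonin (AT3G23990, A_46_P382663), which folds imported proteins, read 13.92, 13.97 and 13.61 at 15 °C, 13.08, 13.09 and 13.27 at 22 °C and 12.20, 12.11 and 12.07 at 27 °C. It fell at each step, by 1.71 ± 0.11 in all (adjusted p = 4.4e-07), while its second probe read a difference of 0.08 and was not called. HSP70 AT5G02500, a constitutive cytosolic form in Arabidopsis, fell by 1.06, the mitochondrial co-chaperone GrpE by 0.96 and a subunit of the cytosolic chaperonin (AT3G20050) by 0.47. Hsp89.1, an HSP90 of organelles, rose by 0.71 in HT and by 1.83 in HS. Among 21 DnaJ and other co-chaperone probes, 8 rose and 2 fell (median 0.25). The 2 that fell did not hold without HT15 replicate 3 or HT27 replicate 2, when 0 fell. DnaJ AT2G20560 read 7.14, 6.83 and 6.97 at 15 °C, 7.10, 6.69 and 7.25 at 22 °C and 8.40, 8.71 and 8.80 at 27 °C, a rise of 1.66 that lay above 22 °C (1.62), and DnaJ AT3G14200 rose by 1.55 in even steps of 0.81 and 0.74. TPR co-chaperone AT4G22670 had 1 probe higher (0.50) and 1 lower (−0.79), the latter not without HT15 replicate 3 (adjusted p = 0.0625) or HT27 replicate 2 (0.0519). Among 4 probes of heat stress and unfolded protein transcription factors, both probes of bZIP60, which acts when proteins unfold in the endoplasmic reticulum, fell by 0.85 and 0.86, all of it by 22 °C, and the other 2 probes were not called.

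**Figure D3:**
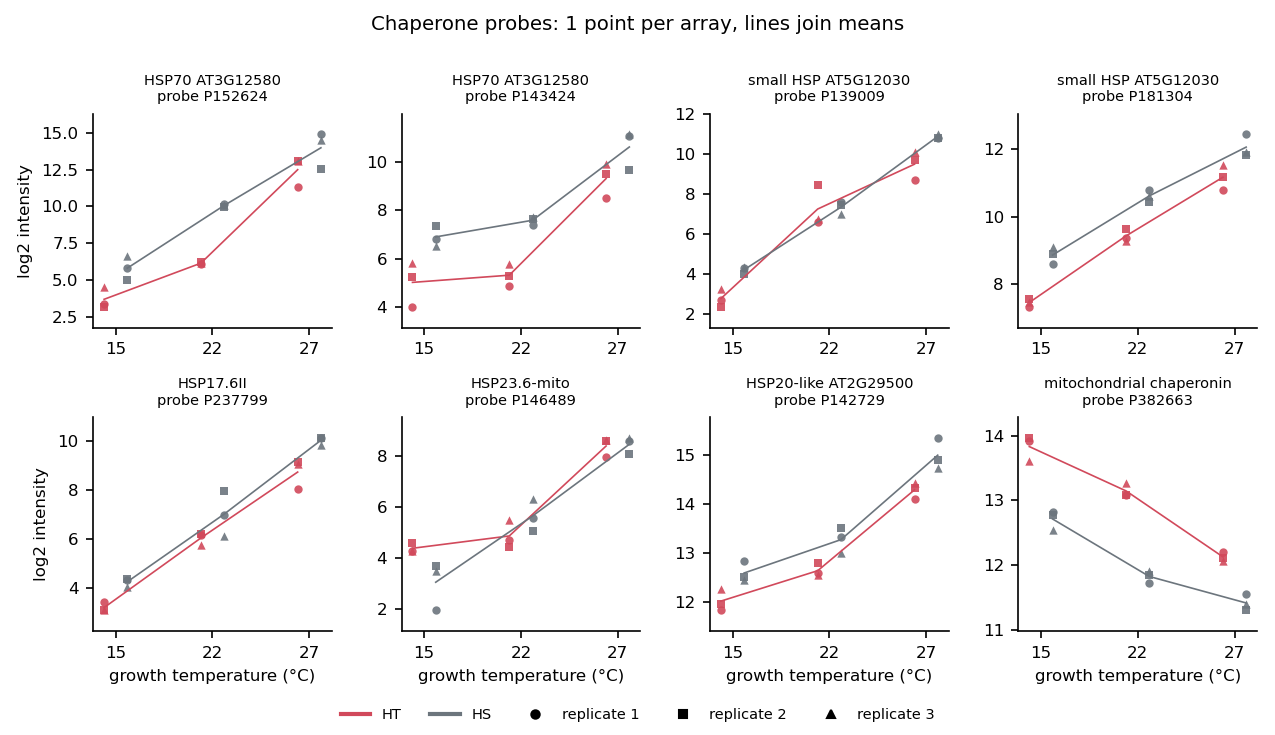
Log2 intensity (y axis) of 8 chaperone probes by growth temperature in °C (x axis; HT points are drawn left of each temperature and HS points right). Each point is an array, marked by replicate number, and lines join the means of 3 arrays; the HSP70 probes climb above 22 °C, the AT5G12030 probes climb at both steps and the mitochondrial chaperonin falls from near 13.83 to 12.13 in HT.

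Flowering regulators moved in both directions. Of 20 probes, 5 rose and 3 fell (median 0.30), and 3 were higher without HT15 replicate 1 or without HT27 replicate 3. FLC read 11.52, 11.52 and 12.14 at 15 °C, 13.18, 13.27 and 12.94 at 22 °C and 13.62, 13.73 and 13.70 at 27 °C. Its groups at 15 and 27 °C lay well apart, with HT15 replicate 3 the highest of the cool arrays, and of the rise of 1.95 ± 0.17 (adjusted p = 6.02e-06) 1.40 came by 22 °C, while the 0.55 above it did not pass (adjusted p = 0.13). AGL79, a MADS box gene, read 4.49, 5.17 and 5.10 at 15 °C and 6.44, 6.73 and 6.49 at 27 °C, with steps of 0.80 and 0.83, the lower not called without HT15 replicate 1 (adjusted p = 0.0675) and the upper not without any one HT27 array (0.0766 to 0.176). Its total was 1.63 ± 0.19 (adjusted p = 7.32e-05). GI peaked in the middle: it read 10.73, 11.02 and 10.52 at 15 °C, 12.75, 12.82 and 12.86 at 22 °C and 12.14, 12.18 and 12.44 at 27 °C, up by 2.05 and then down by 0.55, a fall not called without HT27 replicate 1 (adjusted p = 0.115) or 2 (0.144). Its difference between the ends was 1.5 ± 0.12 (adjusted p = 4.21e-06).

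LFY, which gives floral meristems their identity, overlapped between the groups, at 8.50, 9.08 and 8.32 at 15 °C and 8.27, 8.86 and 8.64 at 27 °C (−0.04 ± 0.41, adjusted p = 0.983). SUF4, an activator of FLC in Arabidopsis, read 7.68, 7.75 and 7.70 at 15 °C and 7.83, 8.01 and 8.29 at 27 °C, a difference of 0.34 that did not pass (adjusted p = 0.0686). The chromatin remodeller PKL read 9.28, 9.56 and 9.38 against 9.71, 9.63 and 9.84; its difference of 0.32 passed (adjusted p = 0.0316) but not without HT15 replicate 1 or 3 or HT27 replicate 1 or 3 (adjusted p = 0.0646 to 0.131). ULT1, which limits the size of floral meristems in Arabidopsis, read 11.44, 11.51 and 11.07 at 15 °C, 10.37, 10.54 and 10.50 at 22 °C and 10.21, 10.36 and 10.40 at 27 °C. It fell by 1.02 ± 0.13 (adjusted p = 0.000149), nearly all of it by 22 °C. HUA1, a factor of floral organ identity, fell by 0.37.

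The FAF family gene FAF2 (AT1G03170), a regulator of shoot meristem size in Arabidopsis, fell on both of its probes. On A_46_P061536 it read 8.81, 9.94 and 9.35 at 15 °C, 3.95, 3.67 and 3.94 at 22 °C and 4.05, 3.29 and 2.79 at 27 °C, where every HT27 array was at background. It was at least 30.1-fold lower on this probe and at least 51.9-fold lower on A_46_P043466. The fall was read by 22 °C (−5.51 and −6.49 from 15 to 22 °C). The signal there was already close to that of HT27 at background, so a further fall could not be seen. HS fell by 3.65 and 4.05 on the same probes, and the lines did not pass the test of a difference (adjusted p = 0.257 and 0.632). Both FAF2 probes come from the set higher in HT. Of the 15 meristem and organ boundary probes, 4 rose and 4 fell, a set that thinned to 2 higher without HT15 replicate 1, HT15 replicate 2 or HT27 replicate 3 and to 1 lower without HT27 replicate 1 or 2. The member that rose most was AMP1, a carboxypeptidase that restrains meristem size, which read 8.02, 8.41 and 8.32 at 15 °C, 9.60, 9.58 and 9.23 at 22 °C and 9.79, 9.79 and 9.75 at 27 °C (1.53 ± 0.19, adjusted p = 0.000116).

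Clock genes shifted in opposite senses. Of 12 probes 5 rose and 3 fell (median 0.08). CIR1, a MYB-like clock gene, read 10.15, 9.92 and 9.53 at 15 °C, 7.32, 7.56 and 7.69 at 22 °C and 6.77, 7.04 and 7.02 at 27 °C, a fall of 2.93 ± 0.15 (7.62-fold, adjusted p = 7.58e-08). COR27-like AT4G33980, a gene of cold and clock in Arabidopsis, stayed level to 22 °C, at 8.19, 8.07 and 7.80 and then 7.80, 8.28 and 8.82, and fell to 4.51, 4.26 and 6.32 at 27 °C. HT27 replicate 3 kept nearly 2 log2 more signal than the others, and the fall was 3.00 ± 0.54 (adjusted p = 0.0017). The members that rose were GI and 4 probes of a catalase (AT4G35090) whose transcript cycles daily (0.88 to 2.27). The catalase probe with the largest difference, A_46_P039711, was also the least steady, losing its call without HT15 replicate 2 or HT27 replicate 1 or 2 (adjusted p = 0.108 to 0.138).

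**Figure D4:**
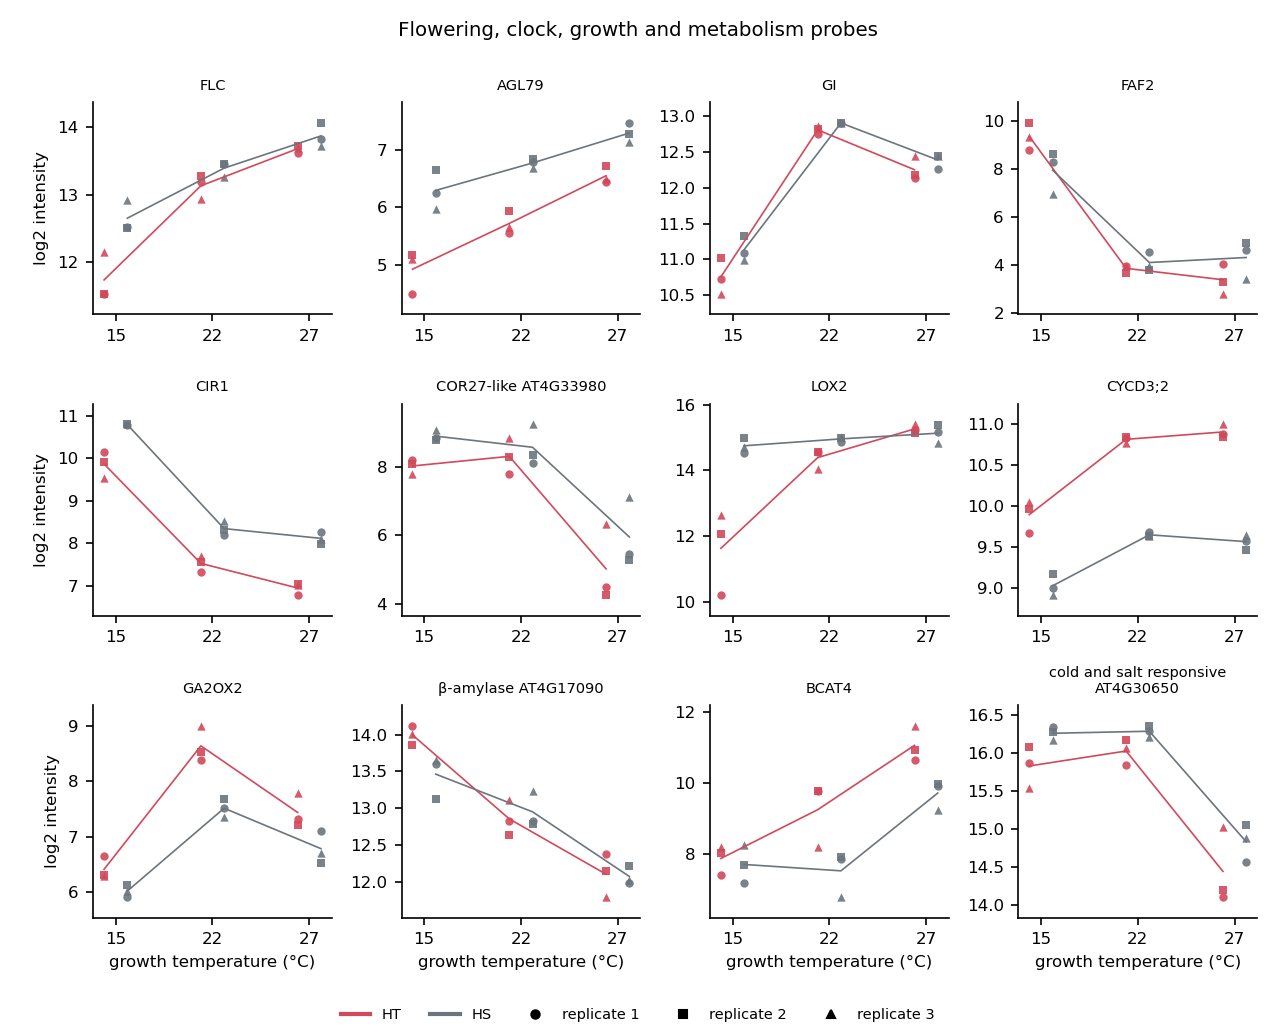
Log2 intensity (y axis) of 12 probes of flowering, clock, growth and metabolism by growth temperature in °C (x axis; HT points left, HS points right of each temperature). Each point is an array and lines join means of 3 arrays; FLC and AGL79 climb, GI and GA2OX2 peak at 22 °C, FAF2 and CIR1 fall by 22 °C, and COR27-like and the cold and salt responsive gene fall only above 22 °C.

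Cold-responsive genes, which Arabidopsis induces in the chill, were the list with the lowest median, −0.97. Of 13 probes, 10 of them from the modules, 7 fell and 2 rose, and the methods' t-test called 9 lower before adjustment and 0 after it. The main fall lay above 22 °C rather than below it: 5 probes fell from 22 to 27 °C and 0 from 15 to 22 °C. The low temperature and salt responsive gene AT4G30650 read 15.87, 16.08 and 15.55 at 15 °C, 15.85, 16.17 and 16.07 at 22 °C and 14.11, 14.20 and 15.03 at 27 °C on A_46_P283298. Here again HT27 replicate 3 was the highest of the warm arrays. Its total was −1.39 ± 0.21 (adjusted p = 0.000516), beside −1.27 on its second probe, and COR78 and a WCOR413-like gene, both of cold acclimation, fell by 1.21 and 0.97 in the same way, with −1.39 and −1.41 above 22 °C. A cold-induced lipid transfer protein (AT4G12480) fell by 1.77 and 1.06, but on neither probe without HT15 replicate 1 or HT27 replicate 3 (adjusted p = 0.0705 to 0.0823). RCI3, a cold-inducible peroxidase, went the other way, from 4.81, 4.94 and 6.37 to 9.43, 9.26 and 8.28 (3.61 ± 0.52, adjusted p = 0.000321).

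Of 21 starch and sugar probes 9 fell, 3 rose and 9 were not called (median −0.67). The chloroplast β-amylase AT4G17090, which releases maltose from starch at night, read 14.12, 13.86 and 14.01 at 15 °C, 12.82, 12.63 and 13.11 at 22 °C and 12.37, 12.14 and 11.79 at 27 °C on A_46_P265598. No temperature overlapped with another, and its 3 probes fell by 1.92, 1.90 and 1.86, the largest adjusted p being 0.000215. BMY3, another β-amylase, fell by 1.29, a glucose 6-phosphate transporter of plastids by 1.55 and a vacuolar glucose transporter by 1.42. The sucrose-phosphate synthase AT5G11110 rose by 1.56, all of it above 22 °C (1.54), while its relative AT5G20280 fell by 0.64 but not without HT15 replicate 1 or HT27 replicate 2 or 3 (adjusted p = 0.0515 to 0.0598). With slide (random) or scan day as a block 5 probes rose.

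LOX2 rose in HT, and on 2 of the 3 probes named for it here it stood high in HS at every temperature. LOX2, the chloroplast lipoxygenase that starts jasmonate synthesis, read 10.19, 12.05 and 12.63 at 15 °C, 14.57, 14.55 and 14.04 at 22 °C and 15.23, 15.15 and 15.40 at 27 °C on A_46_P229914. HT15 replicate 1 was the lowest array, and all 3 HT15 arrays lay below every other HT array. LOX2 rose by 3.64 ± 0.43 in HT (12.5-fold, adjusted p = 8.62e-05), with 2.77 by 22 °C, and by 0.38 in HS, where it was already at 14.54, 14.98 and 14.72 at 15 °C. The response differed between the lines by 3.26 (adjusted p = 0.0411), and by 3.31 on a second probe, A_46_P040601 (adjusted p = 0.0386). Both lost that call when HT15 replicate 2 or any HT27 array was left out, with adjusted p of 0.0535 to 0.093. The remaining probe, A_46_P226369, rose by 1.15 in HT beside 0.96 in HS (adjusted p = 0.0736), with no difference between the lines past the test (0.19, adjusted p = 1.0). Its HT rise was called, but not without HT15 replicate 1 or 3 or HT27 replicate 2 or 3 (adjusted p = 0.0589 to 0.132).

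The other jasmonate genes moved less. Of 10 probes 5 rose and 2 fell (median 0.55), with 3 higher without HT15 replicate 1 or HT27 replicate 3, and 1 lower without HT15 replicate 2 or 3 or HT27 replicate 1 or 2, or with scan day as a block. The methods' t-test called 4 higher before adjustment and 0 after it. TIFY10B, a JAZ-type repressor of jasmonate responses, rose by 1.03 and the receptor COI1 by 0.41, the latter not without HT15 replicate 1 or 2 or HT27 replicate 3 (adjusted p = 0.0577 to 0.0934). A member of the OPDA reductase family (AT1G76690) fell by 1.12, and an allene oxide cyclase by 0.31, a call lost without any one of the 6 arrays (adjusted p = 0.0639 to 0.139). These probes do not cover the steps after LOX2.

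Auxin genes had a median of 0.85, second to the small heat shock proteins. Of 13 probes 7 rose and 1 fell, but 3 rose without HT15 replicate 1 or HT27 replicate 3, and 4 rose and 0 fell with scan day as a block. SAUR AT2G46690, of a family of early auxin-induced growth genes, read 5.71, 5.75 and 5.32 at 15 °C, 7.50, 7.60 and 7.08 at 22 °C and 7.55, 7.58 and 7.16 at 27 °C. The rise of 1.83 ± 0.20 (adjusted p = 4.34e-05) was complete at 22 °C. HS differed by 0.25, which did not pass, and the difference between the lines of 1.59 (adjusted p = 0.0292) was lost without HT15 replicate 1 (0.0542) or HT27 replicate 1 (0.077) or 2 (0.0783). SAUR AT5G18060 rose by 1.05, all above 22 °C. ABP1, an auxin-binding protein, rose by 0.90 in HT and by 2.69 in HS. The factor ARF11 rose by 1.32 and 1.18 on its probes, but on neither without HT15 replicate 1 or HT27 replicate 3 (adjusted p = 0.0832 to 0.112).

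Of 19 probes of the cell cycle, histones and DNA replication 7 rose, 2 fell and 10 were not called (median 0.29), with 1 lower under scan day as a block. The D-type cyclin CYCD3;2, a target of cytokinin in Arabidopsis, read 9.67, 9.97 and 10.05 at 15 °C, 10.83, 10.85 and 10.77 at 22 °C and 10.88, 10.84 and 11 at 27 °C, up by 1.01 ± 0.09 (adjusted p = 1.07e-05) by 22 °C and level thereafter. The replication clamp PCNA rose by 1.26 and CYCB2;3, a mitotic cyclin, by 1.24, whereas another mitotic cyclin (AT3G11520) fell by 0.48. Of 6 cytokinin probes 2 rose, CYCD3;2 and CYCD3;3, and 1 rose without HT15 replicate 1 or 3 or HT27 replicate 2 or 3, or with scan day as a block.

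In abscisic acid signalling 6 of 17 probes rose and 2 fell (median 0.02), with 4 lower under scan day as a block or the 75th percentile shift. The receptor RCAR3 read 8.78, 8.66 and 8.25 at 15 °C and 10.66, 10.51 and 9.31 at 27 °C, so that HT27 replicate 3 was the lowest warm array (1.60 ± 0.31, adjusted p = 0.0027). AT1G52920, another locus of the list, rose by 0.69 and 0.67. An ABI5-interacting protein (AT1G13740), of a family that restrains abscisic acid responses, fell by 1.35 and 1.07 by 22 °C. For ethylene, gibberellin and brassinosteroid 5 of 14 rose, and 3 rose without HT15 replicate 1, HT27 replicate 2 or HT27 replicate 3, or with scan day as a block. GA2OX2, which inactivates gibberellin, peaked at 22 °C like GI: 6.65, 6.30 and 6.28 at 15 °C, 8.39, 8.53 and 9.00 at 22 °C and 7.32, 7.21 and 7.78 at 27 °C. Its steps were 2.23 and −1.20, both past the test. EBF2, which marks ethylene signal proteins for breakdown, rose by 0.85 by 22 °C.

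A thaumatin had the largest fall of any probe that met the naming rule. Of 40 salicylic acid and defence probes 15 rose, 13 fell and 12 were not called (median 0.34), of which 9 of the 13 come from the set higher in HT. This thaumatin, of the pathogenesis-related family (AT1G75050), read 16.63, 15.92 and 12.99 at 15 °C, 8.60, 8.88 and 9.41 at 22 °C and 7.36, 7.68 and 6.15 at 27 °C. HT15 replicates 1 and 2, which share a slide, stood about 3 log2 above HT15 replicate 3 on another slide, and replicate 3 still stood well above every HT array at 22 and 27 °C. The fall was 8.11 ± 0.79 (277-fold, adjusted p = 1.83e-05) and ranged from 7.39 to 9.21 when each array was left out. That error, and the adjusted p with it, pools the spread of all 6 groups of arrays. The SD was 1.93 in HT15, 0.41 in HT22 and 0.81 in HT27. In HS it was 0.27 at 15 °C, 1.22 at 22 °C and 0.35 at 27 °C. The pooled error is therefore smaller than the HT15 and HT27 arrays alone would give. The HS arrays at 15 °C, which lay on the same slides as the HT15 arrays of their number, read 12.93, 12.41 and 12.82. At 27 °C the HS arrays read 12.51, 12.39 and 11.85. The response of HT differed from that of HS by −7.65 ± 1.12 (adjusted p = 0.0112), a call that was kept without each of the 6 HT arrays.

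DMR6 and a glucanase showed the same layout of arrays. DMR6, an oxygenase that breaks down salicylic acid in Arabidopsis, read 12.61, 11.67 and 9.97 at 15 °C, 8.10, 7.36 and 7.81 at 22 °C and 7.72, 7.53 and 6.64 at 27 °C on A_46_P337465, and its 3 probes fell by 4.12, 4.04 and 3.98, against −0.20, −0.04 and −0.06 in HS. The differences between the lines (−3.93, −3.99 and −3.92) passed at adjusted p of 0.0335 to 0.0386 but not without HT15 replicate 2 or any one HT27 array (0.0504 to 0.0916), nor, on A_46_P314665 and A_46_P082311, without HT15 replicate 1 (0.0542 and 0.0515). A β-1,3-glucanase (AT3G57260), which attacks fungal walls, fell by 5.16 and 5.01 from 14.03, 13.05 and 10.24 on A_46_P036491. An uncharacterised gene, AT5G42530, fell by 5.91 and 5.40. PAD4, a hub of salicylic acid signalling, fell by 1.55 ± 0.13 (adjusted p = 5.12e-06). The defence factors of the WRKY family at AT2G46400 and AT4G23810 fell by 2.51 and 1.67, the latter not without HT15 replicate 1 (adjusted p = 0.0563). The methods' t-test called 12 defence probes lower before adjustment and 2 after it.

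WRKY AT3G56400 fell in HT and rose in HS on 1 of its 2 probes. The probe A_46_P291338 read 10.56, 10.29 and 8.23 in HT15 and 6.87, 7.25 and 6.72 in HT27, but 8.50, 9.15 and 7.95 in HS15 and 10.53, 10.44 and 10.19 in HS27. HT fell by 2.75 and HS rose by 1.85, both past the test, and the difference of −4.60 ± 0.67 (adjusted p = 0.0112) was kept without each HT array. On the other probe, A_46_P115959, HT fell by 2.07 (adjusted p = 0.000693), the 0.61 of HS did not pass (adjusted p = 0.269), and the difference of −2.68 passed (adjusted p = 0.0255) but not without HT15 replicate 2 or any one HT27 array (0.0571 to 0.0676). The UDP-glycosyltransferase AT3G11340 read 13.07, 12.48 and 9.06 in HT15, 6.65, 6.92 and 5.36 in HT27, 6.88, 8.81 and 6.68 in HS15 and 11.17, 9.88 and 9.79 in HS27. HT fell by 5.23 ± 1.01 (adjusted p = 0.0026), the 2.82 of HS did not pass (adjusted p = 0.0768), and the difference of −8.05 ± 1.42 passed (adjusted p = 0.0283) but not without HT15 replicate 1 or 2 or any one HT27 array (0.055 to 0.0772).

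SAG12, a cysteine protease that marks senescing leaves, moved with the defence genes. It read 13.29, 12.25 and 9.57 at 15 °C, 7.54, 6.78 and 7.10 at 22 °C and 6.66, 6.91 and 5.84 at 27 °C, a fall of 5.24 ± 0.72 (adjusted p = 0.000261), with the same 2 HT15 arrays high. Here too the error was pooled over all groups, while the HT15 arrays lay far apart. SAG12 is the only senescing-leaf marker measured here, and its part in the defence result was not tested. The 4 green leaf probes had summed log2 levels of 13.84 to 14.09 at 15 °C and 13.41 to 14.35 at 27 °C (1 higher, 0 lower). Of these, Lhca3 had the order of SAG12 over the HT15 arrays (12.36, 12.17 and 12.14) and the other 3 did not. Among glutathione transferases, which join toxins to glutathione, AT4G02520 fell by 5.28 and AT1G69920 by 3.21 with the same array order (12.48, 11.25 and 9.27 for the former at 15 °C).

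**Figure D5:**
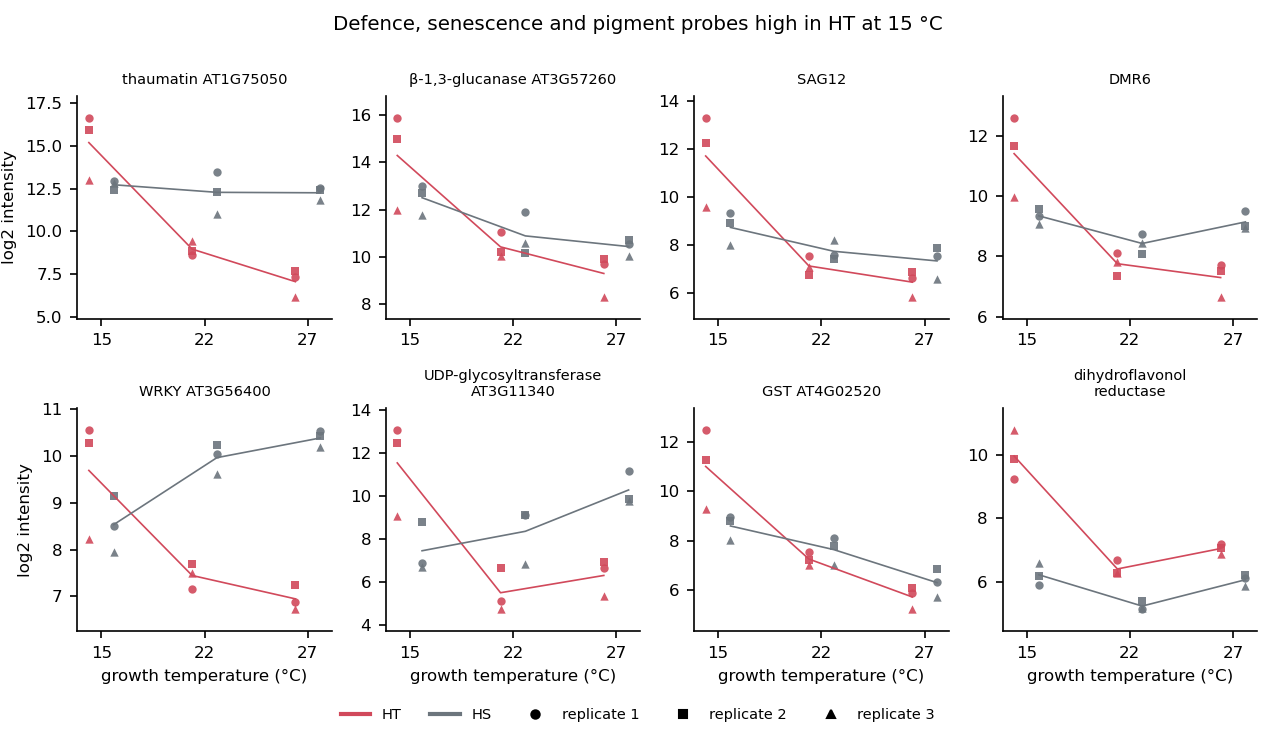
Log2 intensity (y axis) of 8 probes of defence, senescence and pigment by growth temperature in °C (x axis; HT points left, HS points right of each temperature). Each point is an array, marked by replicate number, and lines join means of 3 arrays; HT replicates 1 and 2 stand above replicate 3 at 15 °C in 7 panels, the dihydroflavonol reductase shows the reverse order, and HT lies below HS at 27 °C in 7 panels.

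Other probes of the defence list rose, among them the PR-14 probes, which are also counted in the lipid list. All 6 probes of PR-14 AT3G08770, a lipid transfer protein, rose by 2.28 to 2.49. On A_46_P261733 it read 11.05, 10.69 and 11.74 at 15 °C, 13.43, 12.37 and 13.06 at 22 °C and 13.54, 13.51 and 13.89 at 27 °C. PR-14 AT5G59320 rose by 1.88 and 1.58, and the lipid transfer protein AT1G18280 by 2.15. A SABATH methyltransferase (AT3G11480), of the family that makes methyl esters of salicylic and benzoic acid, rose by 3.09, with 3.07 above 22 °C. A polygalacturonase inhibitor, which blocks fungal enzymes, rose by 1.46, and the immune receptors AT5G66910 and AT5G22690 by 1.41 and 0.84. The thaumatin AT1G75800, of the same family as the probe that fell most, was called higher on 2 probes by small amounts, by 0.37 on A_46_P233024 and 0.63 on A_46_P003066. The first lost its call without HT15 replicate 1 or 3 or HT27 replicate 1 or 3 (adjusted p = 0.0548 to 0.0853) and the second without HT15 replicate 1 or 2 or any one HT27 array (0.0506 to 0.198).

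Among genes that make and break glucosinolates, the mustard oil precursors of broccoli, 4 BCAT4 and 3 ESP probes rose and a C-S lyase of the core pathway fell by 0.82. BCAT4, the first enzyme of side chain elongation of methionine-derived glucosinolates, read 7.38, 8.01 and 8.19 at 15 °C, 9.77, 9.76 and 8.19 at 22 °C and 10.65, 10.92 and 11.61 at 27 °C on A_46_P166449. Its 4 probes rose by 3.26, 3.22, 3.20 and 2.20, the last of which, A_46_P190774, was not called without HT15 replicate 1 or 3 or HT27 replicate 3 (adjusted p = 0.0584 to 0.0851). ESP, which turns glucosinolate breakdown toward nitriles, rose by 1.71 and 1.14 on steady probes, and by 2.19 on A_46_P116364, which was not called without HT15 replicate 1 or HT27 replicate 2 or 3 (adjusted p = 0.0715 to 0.0924). Of 23 glucosinolate and phenylpropanoid probes 10 rose and 6 fell (median 0.34), with 6 higher without HT15 replicate 1 or with scan day as a block; 7 of the 10 come from the set higher in HT. MYB3, a repressor of phenylpropanoid genes in Arabidopsis, rose by 2.19.

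Of the same list, dihydroflavonol reductase and UF3GT, both of anthocyanin synthesis, fell. Dihydroflavonol reductase, the step that commits flavonoids to anthocyanin, read 9.22, 9.87 and 10.78 at 15 °C, 6.67, 6.26 and 6.26 at 22 °C and 7.19, 7.05 and 6.88 at 27 °C on A_46_P141119. HT15 replicate 3 was here the highest of the cool arrays, the reverse of the defence genes. The fall of 2.91 ± 0.30 (adjusted p = 2.65e-05) lay below 22 °C, HS changed by −0.15, and the difference between the lines of −2.76 (adjusted p = 0.0144) was kept without each HT array. On the second probe, A_46_P024261, the fall was 2.90 and the difference between the lines did not pass (adjusted p = 0.0675). UF3GT, which adds a sugar to anthocyanin, fell by 3.15 in HT and by 1.43 in HS.

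Redox enzymes were divided, with 17 of 41 probes higher and 12 lower (median 0.40). The 4 catalase probes rose, as did 3 probes of the chloroplast thioredoxin Trx-f2 (0.90, 0.85 and 0.81), a glutathione peroxidase (AT2G31570, 1.08) and the peroxidase Perx33 (1.62, above 22 °C). The chloroplast superoxide dismutase CSD2 fell by 1.30 ± 0.16 (adjusted p = 0.000128) and the thioredoxin AT1G11530 by 1.70, both above 22 °C (−1.35 and −1.93). Peroxidase AT5G06730 fell by 2.21 and ERD13, a glutathione transferase, by 1.66. GST AT1G17180 rose by 0.75 in HT and fell by 0.34 in HS, and was far brighter in HT (10.32, 10.31 and 10.10 against 6.37, 6.43 and 6.48 at 15 °C).

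Calcium and kinase signalling probes differed by −1.32 to 1.22. Of 27 calcium probes 8 rose and 8 fell, within −0.97 to 1.22, and 5 fell without HT15 replicate 1 or 2 or HT27 replicate 2 or 3. A calmodulin-binding protein (AT2G38800) read 8.02, 8.27 and 7.98 at 15 °C, 8.92, 9.09 and 8.93 at 22 °C and 9.10, 9.29 and 9.53 at 27 °C (1.22 ± 0.13, adjusted p = 4.9e-05). The calmodulin CAM7 had 1 probe higher (0.64) and 2 lower (−0.34 and −0.37), and neither fall was called without HT15 replicate 1 or 2 or HT27 replicate 2 or 3 (adjusted p = 0.057 to 0.145). Of 25 receptor-like kinase and MAPK probes 8 rose and 8 fell; 3 rose without HT15 replicate 1 or HT27 replicate 3, and 5 fell without HT15 replicate 1 or HT27 replicate 1 or 2. The largest were falls, of the leucine-rich repeat kinase AT1G56130 (1.32) and the lectin kinase AT1G11330, which read 8.0, 7.72 and 7.27 at 15 °C and 6.39, 6.54 and 6.13 at 27 °C (−1.31 ± 0.20, adjusted p = 0.000566).

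Cell wall genes were divided, also within families, with 9 of 32 probes higher and 11 lower (median −0.18). The cellulose synthase-like AT4G24000 read 6.48, 5.25 and 7.30 at 15 °C and 9.84, 9.35 and 9.66 at 27 °C, a rise of 3.27 ± 0.53 (adjusted p = 0.000791), while its relative AT1G55850 read 9.74, 8.68 and 8.49 and then 6.69, 6.71 and 6.36, a fall of 2.38 ± 0.34 (adjusted p = 0.000326). All 5 called probes of pectin methylesterase inhibitors rose (0.86 to 1.37). The pectin methylesterase AT3G14310, the kind of enzyme that such inhibitors block, fell on 2 probes, by 0.95 and 0.64, the first not without HT15 replicate 1 (adjusted p = 0.0705) or HT27 replicate 1 (0.0556). The wall-loosening enzyme of AT3G44990 rose by 1.83, and those of AT4G30290 and AT4G30280 fell by 2.04 and 1.07. PME inhibitor AT5G62360 peaked at 22 °C, with steps of 2.17 and −1.27.

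Of 38 probes of the cytosolic ribosome 14 fell and 6 rose (median −0.24), with 3 higher without HT15 replicate 1 or HT27 replicate 1 or 2, or with scan day as a block. The falls were small, from 0.19 to 0.63. An exception was ribosomal L29 AT5G02610, which rose at both steps, from 5.33, 5.17 and 5.25 through 6.87, 7.26 and 7.10 to 8.52, 9.12 and 8.65 (3.51 ± 0.26, adjusted p = 1.73e-06) and rose by 3.41 in HS. Of 20 photosynthesis and chlorophyll probes 5 rose and 2 fell (median 0.17), with 2 higher without HT15 replicate 2 or HT27 replicate 1 and 3 without HT27 replicate 2 or with slide as a random block, and 1 lower with scan day as a block. The ferredoxin FD1 read 9.46, 8.85 and 10.21 and then 11.56, 11.41 and 10.53 (1.66, adjusted p = 0.0123), a call lost without HT15 replicate 2 (0.0569) or HT27 replicate 1 (0.0502). Plastocyanin DRT112 rose by 2.14 (adjusted p = 0.0425), a call lost without HT15 replicate 2 or 3 or HT27 replicate 1 or 2 (0.0883 to 0.145). Of 32 lipid probes 12 rose and 6 fell; 8 of the 12 are the PR-14 probes, and 2 fell without HT15 replicate 1 and 3 without HT27 replicate 3.

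Outside the lists, the largest rises were on probes with no name here. A_46_P180269 read 1.88, 6.66 and 4.95 at 15 °C, 10.51, 10.32 and 9.42 at 22 °C and 11.94, 12.27 and 13.95 at 27 °C, up by 8.22 ± 0.95 (adjusted p = 6.73e-05). A_46_P339750 went from 5.09, 4.64 and 5.27 through 10.74, 10.88 and 10.61 to 12.06, 12.22 and 12.08, up by 7.12 ± 0.30 (adjusted p = 3.02e-08), with most of the rise below 22 °C, and by 6.59 in HS. The largest falls of unnamed probes were on A_46_P345755 and A_46_P347105, at background on every HT27 array and at least 29.3-fold and 30.9-fold lower. Named probes that rose included a 2-oxoglutarate oxygenase (AT1G14120), from 4.91, 4.92 and 4.87 to 8.78, 8.91 and 9.21 (4.07 ± 0.20, adjusted p = 6.6e-08), an elongation factor 1B-type protein (AT5G12110, 3.95) and a sesquiterpene synthase (AT5G44630, 3.77), which makes volatile terpenes. AT3G16150, of the asparaginase family, fell from 6.63, 6.81 and 7.78 to background in HT27, at least 6.14-fold lower, while HS read 2.51, 2.13 and 3.65 at 15 °C and 2.23, 2.08 and 2.10 at 27 °C. With HS this low at 15 °C, a fall there had little room to show.

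Set beside HS, the HT response differed in named genes of both signs. Of the 165 probes with such a difference 49 had a description, 41 of them from the set chosen as higher in HT on these arrays, so that their lean is not independent evidence. Of the 460 list probes 15 were among them, 7 of these in the salicylic acid and defence list. Where both lines rose, HS rose more in ABP1 (8.85, 8.80 and 8.95 to 9.68, 9.81 and 9.81 in HT; 6.78, 6.69 and 7.02 to 9.54, 9.86 and 9.16 in HS), Hsp89.1 and a NudC-type HSP20-like protein (AT4G27890), so that the lines stood closer at 27 °C than at 15 °C. The NudC-type difference (−1.72) was lost without HT15 replicate 1 or 2 or HT27 replicate 1 or 2 (adjusted p = 0.0524 to 0.0588), and that of Hsp89.1 (−1.11) without HT27 replicate 1 (0.0504). Profilin 3 (AT5G56600), an actin-binding protein, rose more in HT, by 2.08 against 0.79 (10.72, 10.66 and 10.92 to 12.81, 12.84 and 12.89 in HT). A CYP96A-type cytochrome P450 (AT4G39510) rose by 0.95 in HT and fell by 1.26 in HS, and a sigma factor binding protein (AT3G56710), which acts in chloroplasts, fell by 2.87 in HT and changed by 0.07 in HS, with the HT15 arrays at 12.20, 11.67 and 10.11. The last 3 genes, and the array values of AT4G30650, WRKY AT3G56400, dihydroflavonol reductase, GST AT1G17180 and ABP1, were chosen after their values were seen.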

How the data were processed

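Total RNA of broccoli shoot meristems was hybridised in 1 colour to Agilent 4x44K Brassica arrays by the authors. The deposited scanner files hold linear intensity (background-subtracted processed signal, Feature Extraction 10.7.1.1), used here. The authors also deposited log2 values (each log2 intensity minus the 75th percentile of its array, then minus the median of that probe), which served as an alternative.

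Control spots (1417) and 4 to 24 outlier-flagged spots per array were left out, spots averaged per probe, and log2 intensities quantile normalized over the 18 arrays. Limma 3.58.1 (R 4.3.3) fitted 1 mean per line and temperature, with Benjamini-Hochberg adjustment over 43603 probes. The ± in the text is the standard error of this fit, which pools the spread of all 6 groups. Where a group spread more than the others, as HT15 did for the thaumatin AT1G75050, this error understates that spread. On simulated data for this comparison (43438 probes), 73 of 100 probes changed by 1.5 log2 and 91 of 100 changed by 3 were recovered, with 1 false call. The simulated noise was normal and independent between arrays, with no effect of slide or scan day. The simulation therefore says nothing about false calls from slide or scan day. It also left 43238 of the 43438 probes unchanged, whereas 18.1% of all probes passed the adjusted p in these data. The adjustment depends on that share, so the simulated counts do not carry over to this comparison. The number of arrays limits the precision, and an exact test of 3 against 3 cannot go below p = 0.1. "At least N-fold" sets the mean of the bright group against the dimmest reliable signal where every array of the other group was not well above background.

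Array values are given for FLC, LFY, GI, SUF4, PKL, AGL79, up to 3 probes per list, up to 15 named probes per direction outside the lists and 3 per direction of any kind, each by size of difference. Members and lists were chosen with earlier results of these data known. Names come from tables of the study, held here only in part. Alternatives changed the normalization, background correction, probe and spot filters, blocks, arrays and test.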

Additional observations from a re-analysis of the deposited data

Results flagged for a closer look

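For 17 probes the response of HT to temperature differed from that of HS by the interaction test of limma (adjusted p under 0.05), given here as the HT response less the HS response in log2. The differences were −7.65 for the thaumatin AT1G75050, −8.05 for the glycosyltransferase AT3G11340 (A_46_P326755), −4.60 and −2.68 for the 2 probes of WRKY AT3G56400, −3.99, −3.93 and −3.92 for DMR6, −3.60 for AT3G16150 (A_46_P382843) and −2.76 for dihydroflavonol reductase. They were −1.79 for ABP1, −1.72 for the NudC-type AT4G27890 and −1.11 for Hsp89.1, where HS rose more. They were 3.31 and 3.26 for LOX2, 1.59 for SAUR AT2G46690, 1.08 for GST AT1G17180 and 1.04 for the thaumatin AT1G75800 (A_46_P233024). A_46_P003066, the other probe of AT1G75800 that was called in HT, did not pass this test. The calls of AT1G75050, ABP1, dihydroflavonol reductase, AT1G17180, AT1G75800 and WRKY probe A_46_P291338 were kept without each of the 6 HT arrays compared, and the others were lost without 1 or more of them.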

How the results depend on the processing

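Of 282 probes followed, 281 kept their direction in every setting. Of the 282, 280 were already called in the main fit, and the settings reuse the same arrays. A kept direction was therefore largely given by this choice of probes. LFY (A_46_P351300), not called, ranged from −0.2 to 0.18 when 1 array was left out, changing sign to 0.18 without HT15 replicate 2 and 0.12 without HT27 replicate 1, and to 0.01 with only arrays of the second scan day, a setting chosen after seeing the data. Leaving out 1 array gave 802 to 975 probes higher and 790 to 988 lower, 2699 to 3440 higher and 2945 to 3300 lower by adjusted p alone, 116 to 137 list probes higher and 90 to 108 lower, and 93 to 412 interactions. The 75th percentile shift gave 1482 higher, 8400 higher by adjusted p alone and 101 interactions, and the authors' values 1482, 8374 and 101. Normexp background gave 482 higher and 441 lower, and 147, 691 and 733 calls for HT27 minus HT22, HT22 minus HT15 and HS27 minus HS15. Slide as a random block gave 311 interactions, as a fixed block 273, and an adjusted p under 0.1 gave 281. The methods' t-test gave 6061 lower without adjustment; after Benjamini-Hochberg it gave 542 higher and 356 lower, 1955 and 1854 by adjusted p alone, and 81 and 48 list probes. The second scan day alone gave 2224 higher and 1622 lower by adjusted p alone. The cause of these shifts was not tested. Replicate numbers were not used to pair the arrays in the main fit, and whether they mark a pairing was not settled. Deviations of HT15 and HT27 arrays of the same number correlated weakly (0.135, 0.0436 and 0.0767). Even so, 3 of 3 HT27 arrays deviated most like the HT15 array of their number. The replicate block gave 988 higher, 1046 lower and 210 interactions. By adjusted p alone it gave 4981 higher and 5415 lower, beside 3866 and 4035 in the main fit. Probes at background limit folds to bounds.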
